A study of Mus musculus with 24 samples.

Results

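S100 proteins are small calcium-binding proteins that work mostly as dimers. Each subunit carries a pair of EF-hand loops, and calcium binding exposes a surface that docks onto a target, such as an annexin, a myosin heavy chain or a cell-surface receptor. Some act inside cells on membranes and the cytoskeleton, and others leave the cell and act as danger signals. In liver, family members are known from myeloid cells, bile duct cells and scar-forming cells rather than from resting hepatocytes.

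The 8 genes described here are S100a1, S100a4, S100a6, S100a8, S100a9, S100a10, S100a11 and S100a13. They were taken as a named list, and all 8 were found on the array by gene symbol, with 1 probe each, among 16504 named genes and 20861 items tested in all (named genes plus 4357 features without a single gene name). The samples were livers of male mice without functional Abcb4, strain FVB.129P2-Abcb4tm1Bor/J, while FVB/NJ abcb4 (+/+) males were the controls, all taken at 3, 6, 9 and 20 weeks. Abcb4 encodes the transporter that moves phosphatidylcholine into bile, and its loss is a mouse model of chronic bile duct injury and liver fibrosis. The 24 arrays, 6 per week, were 2-colour: knockout and wild-type RNA were mixed on each, and Cy5 marked the knockout on 3 arrays of every week. The study states 5 mice and 1 dye swap per week, so 1 array or more in every 6 repeats mice, and p-values count more arrays than mice. The labels do not name the repeated arrays, so the opposite-dye pair with the highest correlation of each week stands in for them below. One label counts the weeks after weaning. The weeks used here are those of the sample titles, which conflict with the source names: these give 3 weeks for all 24 arrays, so every weekly group rests on the titles.

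Every value below is a log2 ratio of knockout over wild type on 1 array, centred on that array's median, so that 0 is no difference and 1 is a ratio of 2. The log base and the direction of the deposited ratios are not stated in the sources used here: base 2 was assumed, and the direction was set so that the deleted gene, Abcb4, is lower in the knockout. With the opposite direction every rise and fall below would be exchanged. On that footing Abcb4 lay below 0 on 24 of 24 arrays, with weekly means of -0.87 ± 0.24, -1.57 ± 0.37, -1.42 ± 0.66 and -1.34 ± 0.34 (SD, n = 6) at 3, 6, 9 and 20 weeks. A ratio gives no level, so neither the liver markers nor the brightness of any probe could be checked, and no member can be ranked against another by abundance. The 3-week arrays were less alike (median correlation with the other 5 arrays of the week 0.227 to 0.391 over all items) than those of the other weeks (0.352 to 0.598). Within them, replicates 1 and 2 had medians of -1.79 and -1.82 over 15 cholesterol synthesis genes, against -0.575 to 0.454 on the other 22 arrays, and replicate 6 had a median of -4.21 over 11 exocrine pancreas genes, against -0.256 to 0.072 on the other 23. Results at 3 weeks are therefore also given without replicates 1 and 2 where this changes them. In bulk liver, fewer cells of a type and less RNA per cell cannot be told apart.

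Averaged over the 4 weeks, S100a6, S100a8, S100a10 and S100a11 were higher in the knockout, S100a1, S100a9 and S100a13 were lower, and S100a4 did not pass the test. A gene was called where the adjusted p of limma's moderated test, corrected by the Benjamini-Hochberg method over all 20861 items, was under 0.05. By that rule 7 of 8 members were called for the mean over weeks, when 38.4% of all items were (18.7% higher, 19.7% lower). Of the 8 members, 2 were higher at 3 weeks and 2 lower, when 7.39% of all items were called (3.64% higher, 3.75% lower). The 6-week arrays had 3 higher members and 3 lower (20.9% of all items, 10.8% higher, 10.1% lower). Then 2 were higher and 1 lower at 9 weeks (21.3%, 10.4% higher, 10.9% lower). By 20 weeks 2 were higher and 0 lower (13.5%, 8.09% higher, 5.37% lower), with unadjusted p under 0.05 on the lower side for none. The members' median log2 ratio was 0.02, 0.26, 0.15 and 0.26 in those weeks, while the median of all items lay between -0.0034 and -0.0014. The family did not move one way: S100a11 was high throughout, S100a6 was high from 6 weeks on, and S100a1 and S100a13 were low only in the weekly tests at 3 and 6 weeks.

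**Figure D1:**
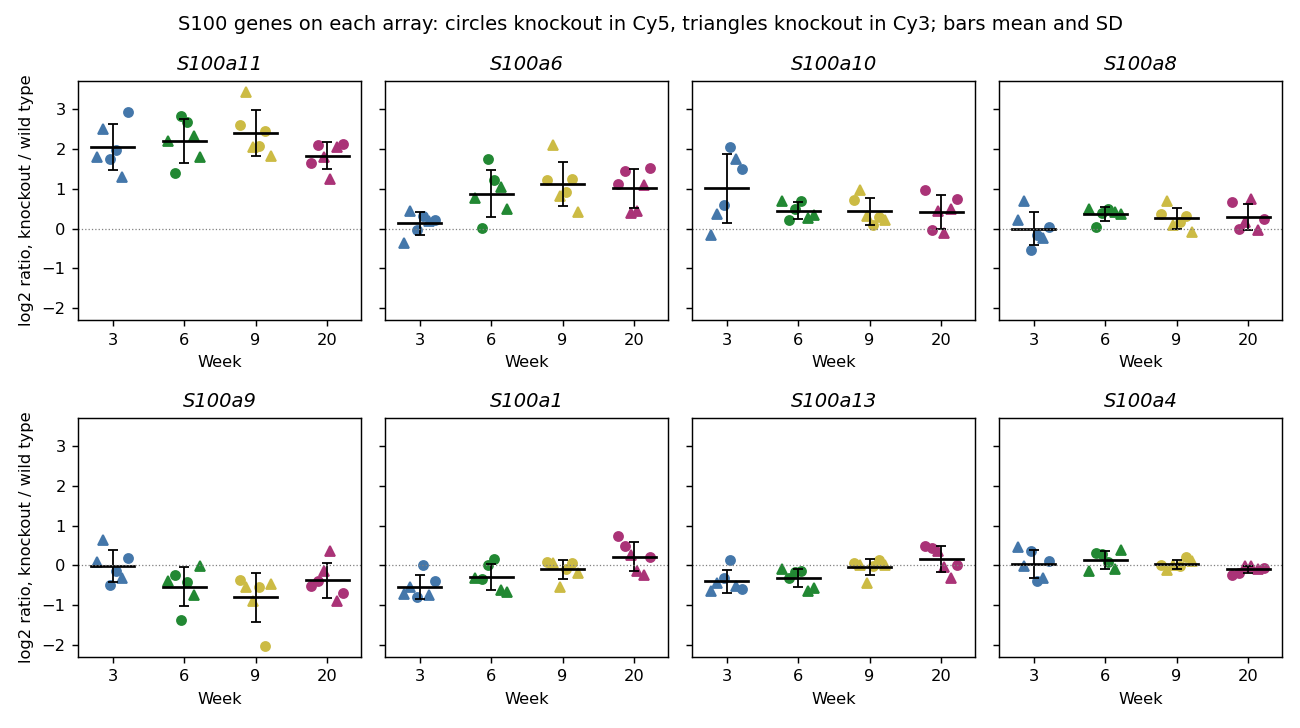
Log2 ratio of knockout over wild type (vertical axis) of the 8 S100 genes at 3, 6, 9 and 20 weeks (horizontal axis), with 1 point per array (6 per week) and the weekly mean ± SD. All 24 points of S100a11 lie above 0, and the points of S100a1 and S100a13 move from mostly below 0 at 3 weeks to both sides of 0 at 20 weeks.

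The 8 genes lie on mouse chromosome 3 in 2 groups, by the RefSeq annotation of build GRCm38.p6 (the array's own build is not stated). S100a1, S100a13, S100a4, S100a6, S100a8 and S100a9 follow each other, with 181.6 kb between the starts of the first and the last. S100a11 and S100a10 lie 3009 kb from the start of S100a1 and are 28.83 kb apart from each other. For the mean over weeks, S100a1 and S100a13, next to each other, were both lower in the knockout. S100a6 and S100a8 were both higher, as were S100a11 and S100a10, and S100a4 was not called. The neighbours S100a8 and S100a9, 22.6 kb apart, had means of opposite sign. Whether position and direction are related was not tested.

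**Figure D2:**
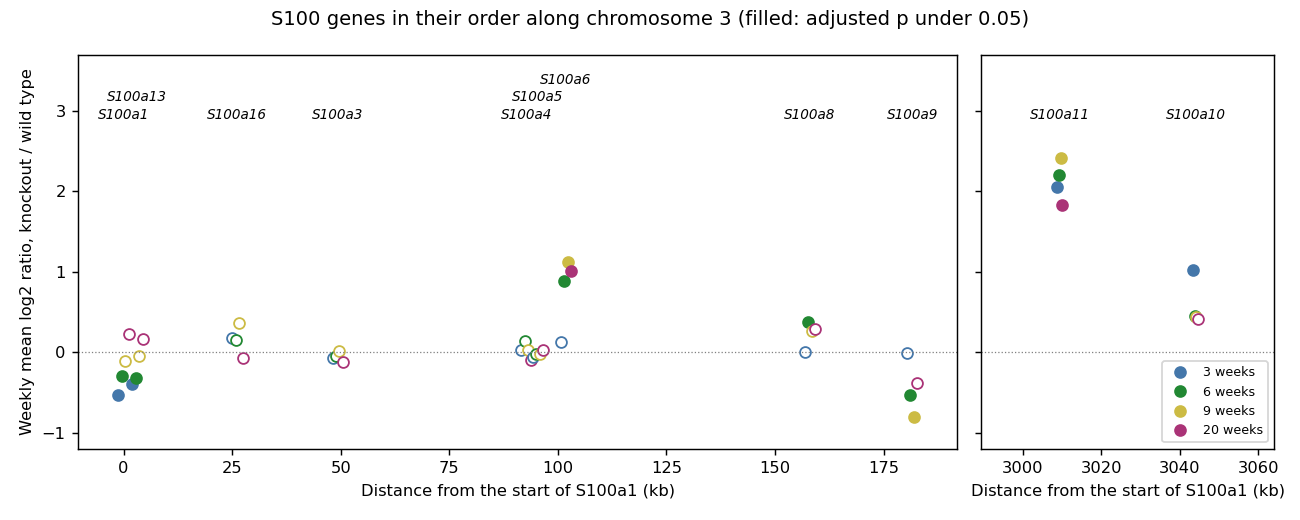
Weekly mean log2 ratio of knockout over wild type (vertical axis, 6 arrays per week) of the 8 S100 genes, and of S100a3, S100a5 and S100a16 between them, against distance from the start of S100a1 on chromosome 3 in kb (horizontal axis, broken between 2 panels). Points are shifted sideways by week for clarity and filled where the adjusted p was under 0.05 in limma's test: S100a11 stands above the other genes at every week (1.83 to 2.42), and S100a8 and S100a9 lie on opposite sides of 0 at 6, 9 and 20 weeks.

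The members that bind annexins were examined first. S100a11, also called calgizzarin, is found in many epithelia and binds annexins, proteins that link membranes to actin in the presence of calcium. Its ratios ran from 1.31 to 2.95 (median 1.90) at 3 weeks, from 1.39 to 2.84 (median 2.27) at 6 weeks, from 1.84 to 3.44 (median 2.27) at 9 weeks and from 1.26 to 2.13 (median 1.92) at 20 weeks. All 24 arrays lay above 0, and the lowest of them was higher than the highest array of S100a4 or S100a8. The weekly means were 2.05 ± 0.58, 2.21 ± 0.55, 2.42 ± 0.58 and 1.83 ± 0.34 (SD, n = 6), with adjusted p of 6.66e-07, 1.46e-07, 3.22e-08 and 2.55e-06 in limma's test. The mean over weeks was 2.13 (SE 0.10, adjusted p = 5.26e-13), and no difference between weeks passed (adjusted p = 0.537 over the 4 weeks in limma's test).

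The promoter of S100a11 is shown because the gene had the highest mean of the 8 at each week. The window runs from 250 bases before to 50 bases after the RefSeq start site, on the plus strand, at chr3:93520246-93520545 (GRCm38.p6), and capitals mark the matches to TGANTCA, the core letters of an AP-1 site.
S100a11: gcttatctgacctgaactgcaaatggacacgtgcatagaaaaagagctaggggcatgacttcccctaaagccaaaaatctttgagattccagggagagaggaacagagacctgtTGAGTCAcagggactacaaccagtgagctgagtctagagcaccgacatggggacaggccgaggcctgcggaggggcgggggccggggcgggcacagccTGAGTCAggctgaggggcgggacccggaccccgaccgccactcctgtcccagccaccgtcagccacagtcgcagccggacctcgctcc
The 2 matches begin 136 and 38 bases before the start site. Matches to TGANTCA, searched on both strands, were found in 7.81% of 32851 RefSeq mouse windows of the same length. Among the 7 members that have such a window, S100a11 alone held this motif. It also held 3 matches to the GC box letters GGGCGG (35.7% of all windows hold at least 1) and 1 to the E-box CACGTG (7.15%). The motifs were chosen with the members known, and a match is a string of letters, not a measured binding site.

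Annexin 2, encoded by Anxa2, followed S100a11 closely. Its weekly means were 1.74, 2.19, 2.39 and 1.64, with adjusted p of 7.28e-06, 2.22e-07, 6.00e-08 and 1.35e-05 in limma's test. Over the 24 arrays the ratios of both genes correlated with Pearson's r = 0.899 and Spearman's rho = 0.923, each with an adjusted permutation p of 0.0002 over 40 gene pairs computed, from the smallest p that 100000 permutations can give (1e-05). Without the 2 arrays farthest from the median of S100a11 the r was 0.901. Within weeks it was 0.996, 0.973, 0.859 and 0.868, and after removal of the weekly means and the dye term it was 0.910. Genes measured on the same array share that array's mice and labelling. Anxa1, which encodes annexin 1, a partner of S100a11, had means of 0.16 at 3 weeks (adjusted p = 0.562) and 0.56, 0.66 and 0.72 at 6, 9 and 20 weeks, and its correlation with S100a11 over the 24 arrays did not pass (r = 0.457, adjusted permutation p = 0.114). Within weeks that r was -0.182, 0.921, 0.859 and 0.686, and after removal of the weekly means and the dye term it was 0.628.

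S100a10, or p11, differs from other members in that its calcium loops no longer need calcium, and it forms a stable complex with annexin 2 at the plasma membrane. At 3 weeks its 6 arrays were spread more widely than in any other week, at -0.15, 0.36, 0.60, 2.05, 1.75 and 1.49 for replicates 1 to 6. Replicates 4, 5 and 6 lay above every array of the later weeks, and replicate 1 lay below 0. The mean was 1.02 ± 0.87 (SD, n = 6; adjusted p = 0.00176 in limma's test), and without replicates 1 and 2, which stand apart on cholesterol synthesis genes, the other 4 arrays averaged 1.47 ± 0.63 (SD, n = 4). When the 3-week arrays were fitted on their own the adjusted p was 0.152.

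From 6 weeks on the ratios of S100a10 were smaller. They ran from 0.21 to 0.70 (median 0.43) at 6 weeks, from 0.09 to 0.97 (median 0.31) at 9 weeks and from -0.11 to 0.98 (median 0.46) at 20 weeks. All arrays lay above 0 at 6 and 9 weeks and 4 of 6 did at 20 weeks, yet the means of 0.46, 0.44 and 0.42 did not pass the test (adjusted p = 0.115, 0.134 and 0.187 in limma's test). The 6-week mean was called when that week was fitted on its own (adjusted p = 0.00968) and when the 3-week replicates 1 and 2 were left out of the fit (0.044). The mean over weeks was 0.58 (SE 0.10, adjusted p = 6.80e-05). The difference between 20 and 3 weeks was -0.60 (SE 0.28, adjusted p = 0.266), and it was -1.05 (adjusted p = 0.0175) without the 3-week replicates 1 and 2.

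Across arrays S100a10 showed no correlation with its partner annexin 2 that passed. The correlation of S100a10 with Anxa2 was r = 0.056 (adjusted permutation p = 0.934), with values of -0.045, 0.531, 0.807 and 0.151 within the weeks and 0.426 without the 2 farthest arrays. The ratio of S100a11 exceeded that of S100a10 on every array at 6, 9 and 20 weeks, by 1.75 ± 0.44, 1.98 ± 0.30 and 1.41 ± 0.47 (SD, n = 6; exact two-sided sign-flip p = 0.03125 each, the smallest 6 arrays allow, and 0.0417 adjusted over the 4 weeks). At 3 weeks the difference was 1.03 ± 1.06 (exact p = 0.125, also 0.125 adjusted). These p-values count 6 arrays where 5 mice are stated: with the closest opposite-dye pair of arrays counted once, all 5 values of the later weeks stayed above 0, and the exact p was 0.0625, the smallest that 5 values allow (0.0833 adjusted). This gene pair was chosen after its values were seen. Ahnak, a giant scaffold protein recruited by the S100a10 and annexin 2 complex, was higher at each week by 0.19 to 0.26 (mean over weeks 0.24, adjusted p = 4.67e-08), although its probes disagreed when fitted separately. Plat, tissue plasminogen activator, a ligand of that complex, was at 0.16 (adjusted p = 0.270) at 3 weeks and higher at 6, 9 and 20 weeks by 0.36, 0.62 and 0.45. Plg, plasminogen, which hepatocytes make and which also binds the complex, had means of 0.37, 0.22, -0.65 and -1.39 and was called lower only at 20 weeks (adjusted p = 0.0219).

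S100a6, calcyclin, is known from proliferating cells and fibroblasts and binds the calcyclin-binding protein encoded by Cacybp. At 3 weeks its ratios ran from -0.35 to 0.45 (median 0.21), on both sides of 0, with a mean of 0.13 ± 0.28 (SD, n = 6; adjusted p = 0.832 in limma's test). At 6 weeks they ran from 0.02 to 1.74 (median 0.91), at 9 weeks from 0.42 to 2.10 (median 1.08) and at 20 weeks from 0.41 to 1.52 (median 1.12). All 18 arrays from 6 weeks on were above 0, although 1 of them, replicate 2 at 6 weeks, was at 0.02. The means of 0.88 ± 0.60, 1.12 ± 0.56 and 1.01 ± 0.48 were called higher (adjusted p = 0.00177, 0.000134 and 0.000843).

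The difference of S100a6 between weeks lay near the threshold. The 20-week ratio exceeded the 3-week ratio by 0.88 (SE 0.27), with an adjusted p of 0.0604, and the test over the 4 weeks gave 0.0705, so a change with age was not called. With quantile normalization these values were 0.0143 and 0.0313, and without the 6-week replicate 2 they were 0.0318 and 0.0266. S100a6 followed S100a11 within the later weeks (r = 0.976, 0.982 and 0.748 at 6, 9 and 20 weeks, 0.384 at 3 weeks), and over the 24 arrays r was 0.622 and rho 0.593 (adjusted permutation p = 0.0168 and 0.0227), with r = 0.505 without the 2 farthest arrays. Correlations with S100a1 (r = 0.609, adjusted permutation p = 0.0168) and, inversely, with S100a9 (r = -0.560, adjusted permutation p = 0.0318) passed as well. Within the 4 weeks r was 0.502, 0.559, 0.576 and 0.335 with S100a1, and 0.363, -0.837, -0.066 and -0.730 with S100a9. The permutations shuffled all 24 arrays without regard to week or dye, so differences between weeks enter these p-values. After removal of the weekly means and the dye term, S100a6 had r = 0.786 with S100a11, 0.382 with S100a1 and -0.322 with S100a9. Cacybp, the binding protein of S100a6, did not pass in any week, with a mean over weeks of 0.12 (adjusted p = 0.210), and its correlation with S100a6 was r = 0.026 (adjusted permutation p = 0.975, and r = -0.164 without the 2 farthest arrays).

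**Figure D3:**
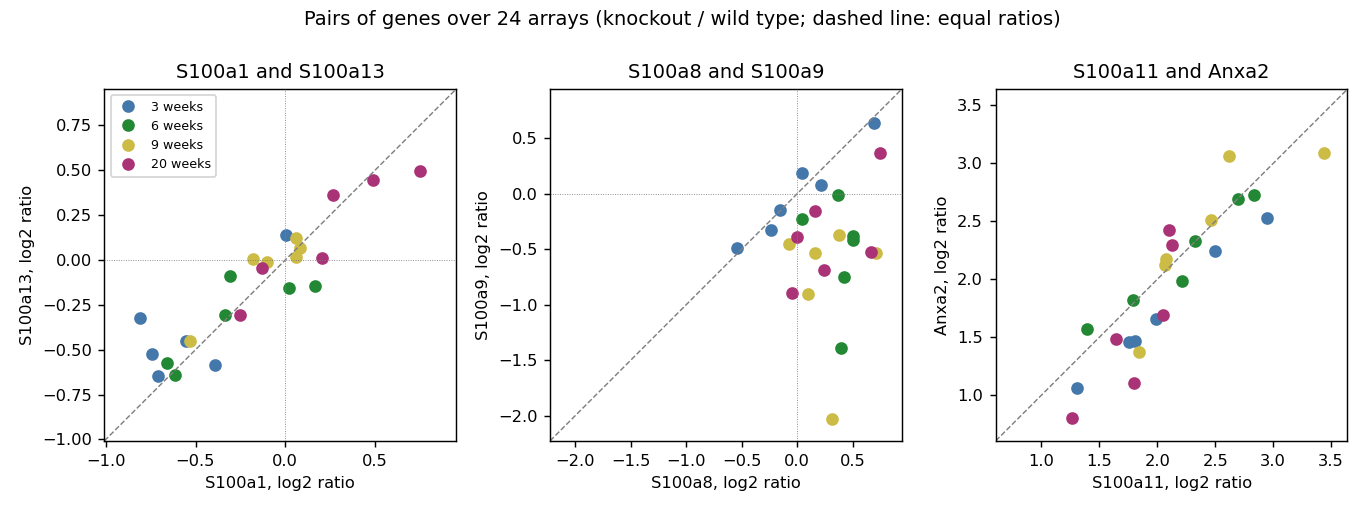
Log2 ratios of knockout over wild type of 3 pairs of genes plotted against each other, 1 point per array (24 arrays), coloured by week, with a dashed line where both ratios are equal. S100a1 with S100a13 (r = 0.907) and S100a11 with Anxa2 (r = 0.899) lie along a line, while for S100a8 with S100a9 (r = 0.104) the 3-week points lie near the dashed line and all points of the later weeks lie below it.

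S100a8 and S100a9 form calprotectin, the most abundant calcium-binding protein of neutrophils, which also binds zinc and manganese and signals through Tlr4 and the receptor for advanced glycation end products. In the knockout livers the mean ratios of the 2 subunits were both near 0 at 3 weeks and differed in sign at 6, 9 and 20 weeks. At 3 weeks S100a8 ran from -0.54 to 0.69 (median -0.05) and S100a9 from -0.49 to 0.63 (median -0.03), and their means were 0.00 ± 0.43 and -0.01 ± 0.40 (SD, n = 6; adjusted p = 0.997 and 0.991 in limma's test). The same arrays were high or low for both genes: r was 0.971 over the 6 arrays of that week, and the difference S100a8 minus S100a9 was 0.01 ± 0.10 (exact two-sided sign-flip p = 0.8125, also 0.8125 adjusted over the 4 weeks). The 3-week replicates 1 and 2, which stand apart on cholesterol synthesis genes, averaged 0.45 for S100a8 and 0.36 for S100a9, whereas the other 4 arrays averaged -0.22 ± 0.24 and -0.19 ± 0.29 (SD, n = 4). The means near 0 therefore combine arrays of opposite sign, while over those 4 arrays r was 0.947 and the difference -0.03 ± 0.10.

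At 6 weeks S100a8 ran from 0.04 to 0.51 (median 0.41) with all 6 arrays above 0, while S100a9 ran from -1.39 to -0.01 (median -0.40) with all 6 below 0. The means were 0.37 ± 0.17 (adjusted p = 0.0324) and -0.53 ± 0.48 (adjusted p = 0.0425, limma, n = 6). Both calls were near the threshold: leaving out replicate 1, 3, 4, 5 or 6 of that week for S100a8, or replicate 1, 3, 4 or 5 for S100a9, moved the adjusted p above 0.05 (0.0535 to 0.109 and 0.0597 to 0.197). With the closest opposite-dye pair of arrays averaged, because 5 mice and 1 dye swap are stated, both calls were lost (0.0729 and 0.0624). That pair was picked by its correlation (r = 0.527 at 6 weeks), and whether it repeats the same mice is not known. The call for S100a8 was also lost with quantile normalization (0.0559) or a common spread (0.0707), and that for S100a9 with a common spread (0.0662), without the dye term (0.0549) or with its week fitted alone (0.0572). At 9 weeks S100a8 ran from -0.08 to 0.71 (median 0.24) with 5 of 6 arrays above 0, and S100a9 from -2.03 to -0.37 (median -0.54) with all 6 below 0. Only S100a9 was called at that week, at -0.80 ± 0.62 (adjusted p = 0.00259), against 0.26 ± 0.27 (adjusted p = 0.139) for S100a8.

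At 20 weeks S100a8 ran from -0.05 to 0.74 (median 0.20) and S100a9 from -0.89 to 0.37 (median -0.46). Neither was called (0.29 ± 0.33, adjusted p = 0.119, and -0.38 ± 0.44, adjusted p = 0.192, limma, n = 6). The difference S100a8 minus S100a9 was positive on 18 of 18 arrays at 6, 9 and 20 weeks, with means of 0.90 ± 0.55, 1.07 ± 0.69 and 0.67 ± 0.36 (SD, n = 6; exact sign-flip p = 0.03125 each, the smallest possible, and 0.0417 adjusted over the 4 weeks). With the closest opposite-dye pair counted once, as 5 mice are stated, all 5 values of each of these weeks were positive, but the exact p was 0.0625, the smallest that 5 values allow (0.0833 adjusted), so that the result under 0.05 rests on counting 6 arrays. This comparison was chosen after the values were seen. Over the 24 arrays the correlation of both genes did not pass (r = 0.104, rho = 0.030, adjusted permutation p = 0.863 and 0.939, and r = -0.004 without the 2 farthest arrays), and the test of a difference between weeks passed for neither (adjusted p = 0.486 and 0.227). Within 6, 9 and 20 weeks r was -0.240, -0.037 and 0.596. After removal of the weekly means and the dye term it was 0.317 over all arrays. Whether the difference between the subunits itself changed with age was not tested.

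The promoter windows of the 2 calprotectin genes are shown because their ratios parted. S100a8 is on the plus strand at chr3:90668821-90669120 and S100a9 on the minus strand at chr3:90695672-90695971 (GRCm38.p6), each printed 5′ to 3′ along its own strand, and capitals mark TATAAA, the core letters of a TATA box.
S100a8: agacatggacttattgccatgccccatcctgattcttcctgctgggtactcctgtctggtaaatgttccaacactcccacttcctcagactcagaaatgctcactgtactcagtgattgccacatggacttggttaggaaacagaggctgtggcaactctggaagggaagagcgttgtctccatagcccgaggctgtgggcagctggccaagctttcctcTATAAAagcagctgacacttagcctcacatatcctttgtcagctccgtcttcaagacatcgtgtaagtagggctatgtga
S100a9: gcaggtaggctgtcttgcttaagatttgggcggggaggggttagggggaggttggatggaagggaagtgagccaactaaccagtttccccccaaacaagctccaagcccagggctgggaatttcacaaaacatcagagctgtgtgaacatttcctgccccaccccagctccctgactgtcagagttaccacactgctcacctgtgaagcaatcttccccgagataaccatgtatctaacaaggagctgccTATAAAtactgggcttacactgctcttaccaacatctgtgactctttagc
TATAAA begins 30 bases before the start site in S100a8 and at the annotated start site itself in S100a9, and 13.6% of the 32851 mouse windows hold it on either strand. S100a4 held the same letters 31 bases before its start.

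Neutrophil markers were read beside the calprotectin genes. Of 16 neutrophil markers measured, the tests called 1 higher with 1 lower in the youngest mice (3 weeks), then 2 with 0 (6 weeks), 2 with 1 (9 weeks) and 1 with 0 (20 weeks), and the median over the list on single arrays stayed between -0.1403 and 0.103. That is 12.5%, 12.5%, 18.8% and 6.25% of the list, against 7.39%, 20.9%, 21.3% and 13.5% of all items. Mpo, which encodes the granule enzyme myeloperoxidase, lay between -0.03 and -0.01 in every week, and Camp, Ltf, Ngp, Elane and Mmp8, further granule genes, passed in no week. Lcn2, a secreted iron-siderophore carrier that hepatocytes also make, was higher at each week at 2.48, 2.83, 3.38 and 2.67, and Ctsg, the granule protease cathepsin G, was higher at 6 and 9 weeks at 0.85 and 0.57. Csf3r, the receptor for granulocyte colony-stimulating factor, was lower at 3 weeks (-0.72, adjusted p = 0.000905), and Cxcr2, a neutrophil chemokine receptor, was lower at 9 weeks (-0.42, adjusted p = 0.0219). Among the receptors of calprotectin, Tlr4 (mean over weeks -0.01, adjusted p = 0.883) and Ager, the receptor for advanced glycation end products (0.01, adjusted p = 0.921), passed in no week, and Cd36, a scavenger receptor, was higher at 6, 9 and 20 weeks by 1.16, 1.34 and 0.83. Across arrays S100a9 and Tlr4 had rho = 0.546 (adjusted permutation p = 0.0438) and r = 0.516 (adjusted permutation p = 0.0647). The r was 0.400 without the 2 farthest arrays and 0.597 after removal of the weekly means and the dye term. It was 0.269 for S100a8 with Tlr4 (adjusted permutation p = 0.431) and -0.384 for S100a9 with Cd36 (adjusted permutation p = 0.203).

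S100a1 and S100a13 behaved alike and changed with age. S100a1 is best known from heart and skeletal muscle, where it binds the calcium pump and the ryanodine receptor, and S100a13 takes part in the release of FGF1 and interleukin-1α, proteins that leave cells without a signal peptide. At 3 weeks S100a1 ran from -0.81 to 0.00 (median -0.63) and S100a13 from -0.65 to 0.14 (median -0.49), with 5 of 6 arrays of each below 0 and replicate 4 the highest for both. The means were -0.53 ± 0.30 (adjusted p = 0.000705) and -0.40 ± 0.29 (adjusted p = 0.00581, limma, n = 6), and both were called lower. Without the 3-week replicates 1 and 2 the call for S100a13 was lost (-0.39, adjusted p = 0.0586), and both calls were lost when the 3-week arrays were fitted on their own (adjusted p = 0.0596 and 0.0982).

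At 6 weeks S100a1 ran from -0.66 to 0.16 (median -0.32) and S100a13 from -0.64 to -0.09 (median -0.23), and the means of -0.29 ± 0.33 and -0.32 ± 0.24 were called lower (adjusted p = 0.0344 and 0.0147, limma, n = 6). The call for S100a1 was lost without replicate 2, 3, 5 or 6 of that week (adjusted p = 0.0519 to 0.12) or without the dye term (0.106), and that for S100a13 without replicate 5 (0.0617). At 9 weeks they ran from -0.53 to 0.08 (median -0.02) and from -0.45 to 0.12 (median 0.01), with means of -0.10 ± 0.23 and -0.04 ± 0.21. At 20 weeks they ran from -0.25 to 0.75 (median 0.24) and from -0.31 to 0.50 (median 0.19), with 4 of 6 arrays of each above 0. Neither was called at 9 weeks (adjusted p = 0.513 and 0.810) or at 20 weeks (0.22 ± 0.37, adjusted p = 0.138, and 0.16 ± 0.32, adjusted p = 0.277).

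The change between 3 and 20 weeks was itself tested. The ratio rose by 0.75 for S100a1 (SE 0.13, adjusted p = 0.00253) and by 0.56 for S100a13 (SE 0.13, adjusted p = 0.0135, limma), and they were the 2 of 8 members called for this difference, against 4.57% of all items. They were also the 2 members called for any difference between the 4 weeks (adjusted p = 0.00873 and 0.0258), against 5.08% of all items. Without the 3-week replicates 1 and 2, S100a13 lost that call (adjusted p = 0.0526 in limma's test) and S100a10 gained it (0.0325). Neither S100a1 nor S100a13 passed the test over the 4 weeks without the dye term in the fit (adjusted p = 0.0522 and 0.0678). The difference between 20 and 3 weeks was called for 2 members without that term as well. S100a1 had a dye effect of 0.19 (adjusted p = 0.0162), S100a13 one of 0.13 (adjusted p = 0.0652), and no other member's dye effect passed. No member passed the tests between neighbouring weeks: 0 of 8 at 6 against 3 weeks (1.3% of all items), 0 at 9 against 6 weeks (0.0767%) and 0 at 20 against 9 weeks (0.0959%) in limma's test, with unadjusted p under 0.05 for S100a6 and S100a8, for S100a13, and for S100a1.

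Across the 24 arrays S100a1 and S100a13 had r = 0.907 and rho = 0.881 (adjusted permutation p = 0.0002 for each), the highest r of the 28 member pairs. Among all named genes, Zadh2 (r = 0.936) and Cisd1 (0.924) were more like S100a1 than S100a13 was, while S100a1 was the gene most like S100a13. For S100a1 with S100a13 the r was 0.717, 0.830, 0.938 and 0.927 within the 4 weeks, 0.916 without the 2 farthest arrays and 0.779 after removal of the weekly means and the dye term. The difference between both genes was within -0.13 to 0.06 on average in each week, with SDs of 0.08 to 0.22, and passed in none (exact sign-flip p from 0.125 to 0.719, adjusted 0.438 to 0.719, n = 6). The start sites on which the RefSeq promoter windows are placed diverge and lie 105 bases apart, at 90514330 on the minus strand for S100a1 and at 90514435 on the plus strand for S100a13. The annotated gene of S100a13 as a whole begins earlier, at 90514233, so that it overlaps S100a1, and the 105 bases hold for that start site only.

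The shared stretch of their promoters is shown because the genes moved together. The window of S100a13, on the plus strand at chr3:90514185-90514484 (GRCm38.p6), is printed with the 204 bases it shares with the window of S100a1 (90514281 to 90514484) in capitals.
S100a13: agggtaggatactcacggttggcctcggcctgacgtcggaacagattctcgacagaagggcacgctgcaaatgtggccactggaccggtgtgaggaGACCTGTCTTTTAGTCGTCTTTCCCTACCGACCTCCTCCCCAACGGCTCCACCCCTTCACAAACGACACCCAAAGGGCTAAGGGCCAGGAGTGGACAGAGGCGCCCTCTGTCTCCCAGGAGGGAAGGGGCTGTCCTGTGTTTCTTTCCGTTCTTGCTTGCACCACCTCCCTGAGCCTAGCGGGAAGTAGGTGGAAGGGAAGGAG
The S100a1 window reads the capitals on the opposite strand. Neither window held any of the 4 motifs named here (the TATA box, AP-1, GC box and E-box letters), and their GC contents were 61% and 59.3%, against a median of 52.7% over all windows.

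Neither cargo gene of S100a13 correlated with it past the threshold. Fgf1, which encodes acidic fibroblast growth factor, was at -0.08 at 3 weeks (adjusted p = 0.875) and lower at 6, 9 and 20 weeks at -0.88, -0.88 and -0.75, when the means of S100a13 were -0.32, -0.04 and 0.16, and their correlation was r = -0.288 (adjusted permutation p = 0.386). Il1a, interleukin-1α, was lower at 9 weeks alone (-0.22, adjusted p = 0.00926), with r = -0.096 (adjusted permutation p = 0.881; r = -0.199 without the 2 farthest arrays).

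S100a4, also known as fibroblast-specific protein 1 and used as a marker of fibroblasts and some macrophages, was the member that passed in no comparison. Its ratios ran from -0.41 to 0.45 (median 0.05) at 3 weeks, from -0.15 to 0.39 (median 0.19) at 6 weeks, from -0.11 to 0.21 (median 0.00) at 9 weeks and from -0.24 to -0.01 (median -0.07) at 20 weeks. The first 3 weeks had arrays on both sides of 0, and all 6 arrays at 20 weeks lay below it. The weekly means were 0.03 ± 0.35, 0.14 ± 0.23, 0.03 ± 0.11 and -0.10 ± 0.09 (SD, n = 6; adjusted p = 0.929, 0.306, 0.862 and 0.522 in limma's test). The mean over weeks was 0.02 with a 95% interval of -0.07 to 0.12. Whether the S100a4 probe rose above background is not known from ratios. Myh9, the non-muscle myosin heavy chain that S100a4 binds, was higher at each week by 0.80 to 0.93 (mean over weeks 0.88, adjusted p = 4.79e-08).

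Several cell-type marker lists had members higher in the knockout in the weeks when S100a6 and S100a11 were called. All counts here stand against 3.64%, 10.8%, 10.4% and 8.09% of all items higher and 3.75%, 10.1%, 10.9% and 5.37% lower at 3, 6, 9 and 20 weeks. Of 19 stellate cell and fibroblast markers 8, 14, 15 and 11 were higher and none lower at 3, 6, 9 and 20 weeks, with list medians of 0.34, 0.60, 0.71 and 0.54. Of 17 macrophage and monocyte markers 7, 14, 14 and 14 were higher and none lower (medians 0.32, 0.54, 0.73 and 0.56). Of 15 bile duct and epithelial markers 6, 10, 11 and 11 were higher and none, none, 1 and none lower (medians 0.26, 0.51, 0.86 and 0.78). Col1a1, the fibrillar collagen chain, was at 1.01, 1.25, 1.53 and 1.31, and Krt19, a keratin of bile duct cells, was at 0.02, 0.51, 0.86 and 0.78, the former already called at 3 weeks and the latter from 6 weeks on. S100a10 had its highest mean at 3 weeks, when the medians of these 3 lists were at their lowest. That was also its only weekly call in the fit over all arrays. Its differences from 3 weeks did not pass there (adjusted p = 0.408 at 6 weeks and 0.266 at 20 weeks in limma's test). With each week fitted on its own, the 6-week mean was called (0.00968) and the 3-week mean was not (0.152). On single arrays the stellate list's median lay between 0.14 and 0.52 at 3 weeks, where S100a6 was not called, and between 0.37 and 1.24 later. Of 15 hepatocyte markers 4, 2, 4 and 3 were lower and 1, none, 1 and 1 higher, and lymphocyte (15 measured) and endothelial (12 measured) markers had at most 3 higher and 1 lower in a week, or 6.67% to 20.0% and 0% to 33.3% of the list called. The part of cell number in the members' ratios was not tested.

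Of the other S100 genes on the array, 1 of 6 was called, at 20 weeks and for the mean over weeks. Of all items 13.5% were called at 20 weeks and 38.4% for the mean. Among S100a3, S100a5, S100a16, S100b, S100g and S100pbp, the last of which encodes an S100P-binding protein, S100b passed, lower at 20 weeks at -0.35 ± 0.29 (SD, n = 6; adjusted p = 0.0246) and for the mean over weeks at -0.14 (adjusted p = 0.0398). S100b is the glial member of the family, and its value averages 2 probes that differed. S100a16 had the largest remaining weekly mean, 0.36 ± 0.41 at 9 weeks (adjusted p = 0.113). Of the fused S100-type proteins of skin encoded nearby, Hrnr, hornerin, was lower at 20 weeks (-0.16, adjusted p = 0.0380). Beside these 2 genes, none of the 9 measured of a wider list of 17 family members and neighbours was called at any week, although Rptn, repetin, was called higher for the mean over weeks at 0.06 (adjusted p = 0.00901) and Hrnr lower at -0.07 (0.0266). At 3, 6 and 9 weeks 0% of the 9 were called, against 7.39%, 20.9% and 21.3% of all items. The share was 22.2% at 20 weeks, against 13.5%, and 33.3% for the mean over weeks, against 38.4%.

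Partners, receptors and targets of S100 proteins were higher in the knockout more often than lower. Of 34 measured out of 35 listed, 13, 15, 14 and 13 were higher in the 4 successive weeks, and none, 2, 3 and 3 were lower. The higher shares were 38.2%, 44.1%, 41.2% and 38.2% of the list, against 3.64%, 10.8%, 10.4% and 8.09% of all items. The lower shares were 0%, 5.88%, 8.82% and 8.82%, against 3.75%, 10.1%, 10.9% and 5.37%. For the mean over weeks 18 were higher, 4 lower and 12 not called, against the shares of 18.7% and 19.7% among all items. After Anxa2, the partner with the highest 9-week value was Cd36. Ostf1, a cytoplasmic adaptor protein, was higher at each week (0.59, 0.86, 1.08 and 0.77), as were Cyba and Cybb, the membrane subunits of the phagocyte NADPH oxidase to which calprotectin delivers arachidonic acid (mean over weeks 0.64 and 0.59), and Alcam, an adhesion molecule (0.67). Cd14 and Ly96, co-receptors of Tlr4, were higher over the weeks by 0.51 and 0.27, unlike Tlr4 itself. Bsg, or basigin, a receptor for S100a9, was called at 3 weeks alone (0.74, adjusted p = 0.0185).

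**Figure D4:**
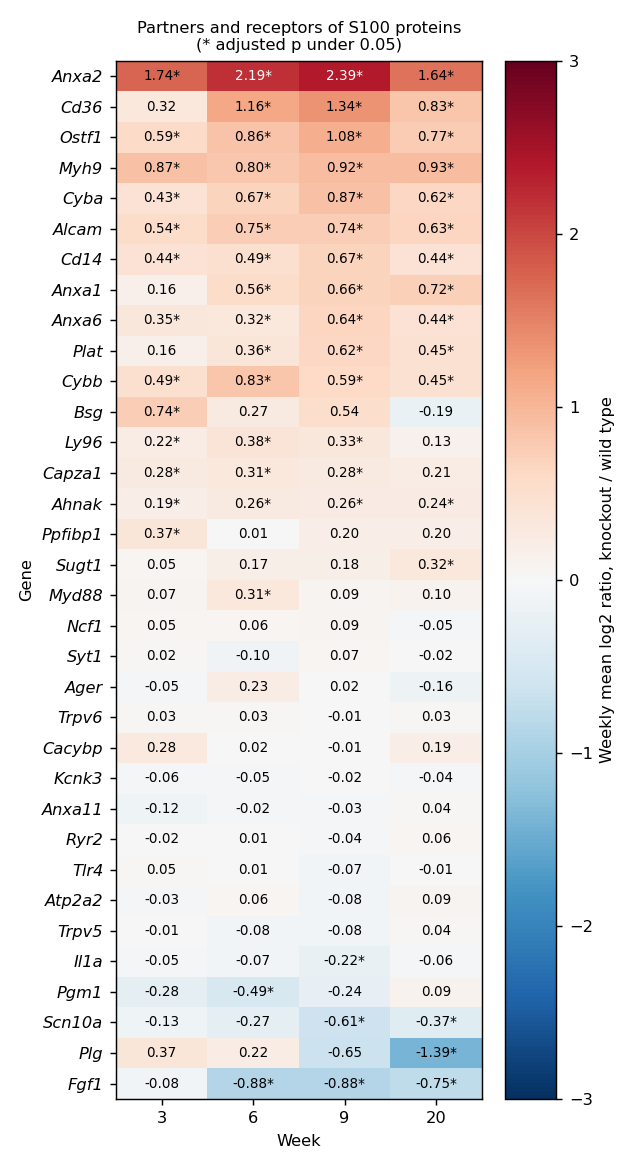
Weekly mean log2 ratio of knockout over wild type (colour and number, 6 arrays per week) for the 34 measured partners, receptors and targets of S100 proteins, sorted by the 9-week value, where an asterisk marks an adjusted p under 0.05 in limma's test. Anxa2 heads the list at each week (1.64 to 2.39), Fgf1 stands at the foot at 9 weeks (-0.88), and Tlr4 and Ager have no asterisk.

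A list of other EF-hand calcium-binding proteins was counted in the same way. Of 27 measured out of 29 listed, 4, 10, 10 and 7 were higher and 2, 1, 1 and 1 lower at 3, 6, 9 and 20 weeks, and for the mean over weeks 15 were higher and 3 lower. Among all items 3.64%, 10.8%, 10.4% and 8.09% were higher in those weeks, and 3.75%, 10.1%, 10.9% and 5.37% were lower. For the mean over weeks 18.7% of all items were higher and 19.7% lower. The list also held Rgn, regucalcin, a calcium-binding protein without an EF-hand, lower at 3 weeks (-0.62) and for the mean over weeks (-0.25), and without it 26 genes were measured, 1 was lower at each week and 2 were lower for the mean. Cib3, a calcium- and integrin-binding protein, was at 0.02 at 3 weeks (adjusted p = 0.984) and at 2.45, 1.56 and 1.15 later, and its rise from 3 to 6 weeks passed (adjusted p = 0.000495). Capns1, the small calpain subunit, Rcn3, a reticulocalbin of the endoplasmic reticulum, and the calmodulin gene Calm3 were higher over the weeks by 0.57, 0.44 and 0.40 (adjusted p = 2.93e-08, 1.59e-08 and 5.33e-08), with Calm2 at 0.46 and Sri, sorcin, at 0.40. S100a11 exceeded each of these in its mean over weeks.

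The genes whose ratios over the 24 arrays were most like each member were also listed, as a description without a test. The nearest genes were Kifc3 (r = 0.935), Pdgfrb (0.933) and Ajuba (0.927) for S100a6, Pdgfrb being the platelet-derived growth factor receptor of stellate cells. For S100a11 they were Anxa2 (0.899), Phlda3 (0.876) and Smox (0.848), and for S100a1 they were Zadh2 (0.936), Cisd1 (0.924) and S100a13. S100a13 was nearest to S100a1, Opa1 (0.884) and Ndrg3 (0.849), and Cisd1 and Opa1 encode mitochondrial membrane proteins. S100a8 was nearest to Btg2 (0.771), Itih3 (0.758) and the macrophage gene Mpeg1 (0.757), and S100a9 to Izumo2 (0.881), Nxnl2 (0.877) and Usp18 (0.864), with no gene in common. S100a10 was nearest to Iigp1 (0.850), Fabp1 (0.839) and Rab32 (0.831), and S100a4 to Sdad1 (0.861), Olfr1143 (0.818) and Izumo4 (0.813). The highest likeness among some 16504 named genes is high by selection, and values on one array share its labelling and hybridization.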

How the data were processed

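The deposited values are log ratios of the 2 dyes of each array, made by the authors and treated here as log2; RNA was extracted with an RNeasy kit and labelled with a FairPlay kit on spotted cDNA arrays, per the labels' protocols, and no source used here states the scanner, background correction or normalization. Without intensities no probe could be tested against background. The 22575 value rows were joined to the probes by reading a 215 by 105 grid by column with both axes reversed. The median correlation between copies of a sequence, averaged over the 48 most repeated sequences, was then 0.663, against 0.0072 for the direct join. There, 18218 features had 1 gene, 16 several and 4341 none. Arrays with wild type in Cy5 were turned, every array was centred on its median, and probes were averaged per symbol. limma 3.58.1 (R 4.3.3) fitted 1 mean per week and 1 dye term over all 24 arrays, and a named adjusted p is its moderated test with Benjamini-Hochberg correction over 20861 items. The fit was tested on simulated data. The number of arrays limits precision.

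The members and all lists were chosen with earlier results of these data known. Named genes are the 8 members, further S100 genes, direct partners, the 6 partners and 6 EF-hand genes with the smallest p for the mean over weeks, and the 3 genes most like each member. Further list members named beside them, and the cholesterol synthesis genes, were chosen after their values were seen. Alternatives covered centring, quantile normalization, a common spread of the arrays, the dye term, each week alone, averaging the closest array pair of opposite dye, the replicate number as a block, separate probes, a robust fit, and each array left out; the averaged pair in exact tests and the list without Rgn were added after the data were seen. Same-numbered arrays of different weeks correlated between -0.364 and 0.496 (residuals, 36 pairs, 18 over 0.1), so the numbers were not treated as pairs. Promoter sequences come from RefSeq, build GRCm38.p6, for 7 of 8 members. Python 3.11.15 was used for joins and permutations.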

Additional observations from a re-analysis of the deposited data

Results flagged for a closer look

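Of 32 groups of 6 arrays (8 members at 4 weeks), 3 held an array far from the rest (the gap to its nearest neighbour, as a share of the group's range, was above Dixon's critical value). Chance flags about 1 in 20 groups. Replicate 2 at 6 weeks had an S100a8 ratio of 0.04, below the other 5 arrays of that week. Replicate 5 at 9 weeks had an S100a9 ratio of -2.03, and replicate 3 at 9 weeks an S100a13 ratio of -0.45.

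For S100a1 and S100a13 the knockout effect differed between ages, by 0.75 and 0.56 at 20 against 3 weeks in limma's test of the difference (adjusted p = 0.00253 and 0.0135).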

How the results depend on the processing

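No called value of a member changed sign in any setting, and sign changes of uncalled values were not counted. Of the member values under the alternatives, 2617 stayed on their side of the threshold, 37 lost the call and 18 gained it. The number of members that differed between the 4 weeks, 2, became 0 without the dye term and 1 with the closest opposite pair averaged. The number called at 3 weeks, 4, became 1 when each week was fitted on its own. At 6 against 3 weeks 1 member, S100a10, was called without the 3-week replicates 1 and 2, a setting chosen after seeing the data (-1.01, adjusted p = 0.037 in limma's test). In that setting S100a10 (0.0325) took the place of S100a13 (0.0526) among the members called for any difference between weeks. With 1 array left out at a time, the counts ranged from 2 to 6 at 6 weeks (3 without the 6-week replicate 3 and 2 without replicate 5), from 1 to 3 for any difference between weeks (1 without replicate 1 or 3 at 3 weeks, or 1, 2 or 3 at 20 weeks), from 2 to 3 at 20 against 3 weeks and from 0 to 1 at 6 against 3 weeks (S100a6 without the 6-week replicate 2, adjusted p = 0.0482). They stayed at 4, 3 and 2 at 3, 9 and 20 weeks, at 7 for the mean over weeks, and at 0 for the other neighbouring weeks. With the replicate block, S100a9 was also called at 20 weeks (adjusted p = 0.0284) and for a difference between weeks (0.0263), and 7 of 24 arrays correlated best with an array of their own number. Fitted on its own week, S100a9 at 9 weeks had an adjusted p of 0.0545. The mean of S100a13 over the weeks missed the threshold with the closest opposite pair averaged (0.0597). Plg was lower over the weeks without the 3-week replicate 1 (-0.476, adjusted p = 0.0389), and the Ahnak probes disagreed when fitted separately. Over all items 2466 were called at 3 weeks with a common spread, against 1542. The causes were not tested. Ratios without intensities leave the signal over background of each probe unknown.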
